A study of Mus musculus with 6 samples.

Results

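Toll-like receptors (TLRs) and their adaptor were followed across the libraries of WT and *Slc37a2* KO cultures. The genes were 9 receptors, *Tlr1*, *Tlr2*, *Tlr3*, *Tlr4*, *Tlr6*, *Tlr7*, *Tlr8*, *Tlr9* and *Tlr13*, and the adaptor *Myd88*, chosen by symbol from the 22601 genes of the count table. All 10 were listed and all 10 passed the filter on low counts, among 13483 genes that did. RNAseq, which counts sequenced RNA fragments gene by gene, was performed on 3 WT and 3 *Slc37a2* KO libraries. Both groups were labelled as osteoclasts grown from bone marrow macrophages for 5 days with 10 ng/ml RANKL, the cytokine that drives osteoclast formation, and 2 ng/ml M-CSF, a macrophage survival factor. The KO mice were homozygous for the Slc37a2 tm2a(KOMP)Wtsi allele, a whole-body gene-trap insertion that came from 1 embryonic stem cell clone on a C57BL/6N background, and the WT mice were their littermates. The column headings give 11 weeks of age for all animals, and each also carries the letter F, whose meaning is not stated. The study's Results also describe RNAseq of osteoclasts from WT and *Slc37a2* KO mice. Its RNAseq methods instead describe RNA from whole femurs and tibias, so osteoclast and other cell markers are given beside the results. No label says which animals shared a culture or a preparation, so p-values measure the spread between these libraries only. Libraries are named by genotype and animal number: WT K090, L080 and L082, and KO K089, L078 and L081.

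TLRs are innate immune receptors that recognize microbial molecules. Some sit on the cell surface and bind lipids and proteins of bacteria, whereas others sit in endosomes and bind nucleic acids. MyD88 links every one of them except TLR3 to the IRAK kinases and TRAF6, and through these to NF-κB and to inflammatory genes, and it serves the IL-1 and IL-18 receptors in the same way. Osteoclasts arise from macrophage lineage precursors that carry TLRs, and TLR ligands are known to hold such precursors back from the osteoclast fate.

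Totals ran from 27552183 to 42522292 counts per library. Levels are given as scaled CPM, edgeR's counts relative to a library size that was corrected by the TMM method, whose factors lay between 0.931 and 1.06. *Slc37a2* fell from 2149 ± 292 scaled CPM in WT to 38.1 ± 6.66 in KO libraries (SD, n = 3), with a log2 fold change of −5.82 (adjusted p = 0.000707, edgeR quasi-likelihood fit, Benjamini-Hochberg). It was the 1 gene of 13483 with an adjusted p below 0.05, 0.00742% of those tested. Osteoclast markers were abundant in every library, their sum over 10 genes running from 38340 to 57806 scaled CPM in WT and from 41852 to 75628 in KO. Macrophage markers were also present throughout, with a sum over 10 genes of 5338 to 8438 scaled CPM in WT and 5728 to 7824 in KO. Sums over 8 stromal markers were 848 to 1635 in WT and 669 to 1869 in KO, those over dendritic cell markers 22 to 25.9 and 22.9 to 31.8, and those over B cell markers 4.14 to 7.22 and 3.45 to 8.23. Neutrophil markers summed to 0.707 to 1.41 in WT and 0.354 to 0.555 in KO. No listed marker was at 0 in every library, and *Siglech*, *Cd209a*, *Ms4a1*, *Pax5*, *Ly6g* and *Elane* were not listed. The part of these other cells in the values below was not tested.

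None of the 10 genes differed between genotypes beyond the spread of the libraries. In the quasi-likelihood fit of edgeR, with Benjamini-Hochberg adjusted p-values, 0 of 10 were called, 0 of 10 had an unadjusted p below 0.05, and 0 of 10 were called by edgeR's likelihood ratio test or DESeq2's Wald test. Among all tested genes, 0.712% had an unadjusted p below 0.05. The ranges of the 2 genotypes were separate for 0 of the 10 genes, against 4.31% of all tested genes. All 10 log2 fold changes were below 0, with a median of −0.49, where 7584 genes were below 0 and 5899 above and the median over all genes was −0.02. The adjusted p was 0.969 for 9 of them and 0.971 for *Tlr9* in that edgeR fit. With 3 libraries against 3, the smallest two-sided p of an exact permutation test is 0.1, and these genes gave 0.2 (*Tlr4*) to 0.8 (*Tlr9*).

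Most of the receptors differed widely between libraries of the same genotype. *Tlr1*, *Tlr2*, *Tlr3*, *Tlr6*, *Tlr7*, *Tlr8*, *Tlr9* and *Tlr13* spanned 3.66-fold to 8.36-fold from the lowest to the highest library, and the span within each genotype alone was at least 2.32-fold. *Tlr4* and *Myd88* spanned 1.47-fold and 1.28-fold. The median span of the 10 genes was 4.17-fold, against 1.34-fold over all tested genes, of which 10.4% spanned 3-fold or more. Among the 8692 genes over 10 CPM, 255 (2.93%) did so. WT K090, WT L080 and KO L078 were the 3 highest libraries for all 10 genes, as they were for 3041 of the 13483 tested genes (22.6%). The 10 genes are not independent of each other, because they were measured in the same 6 libraries. KO K089 was the lowest library for all 10, although WT L082 was about as low for *Myd88*.

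**Figure D1:**
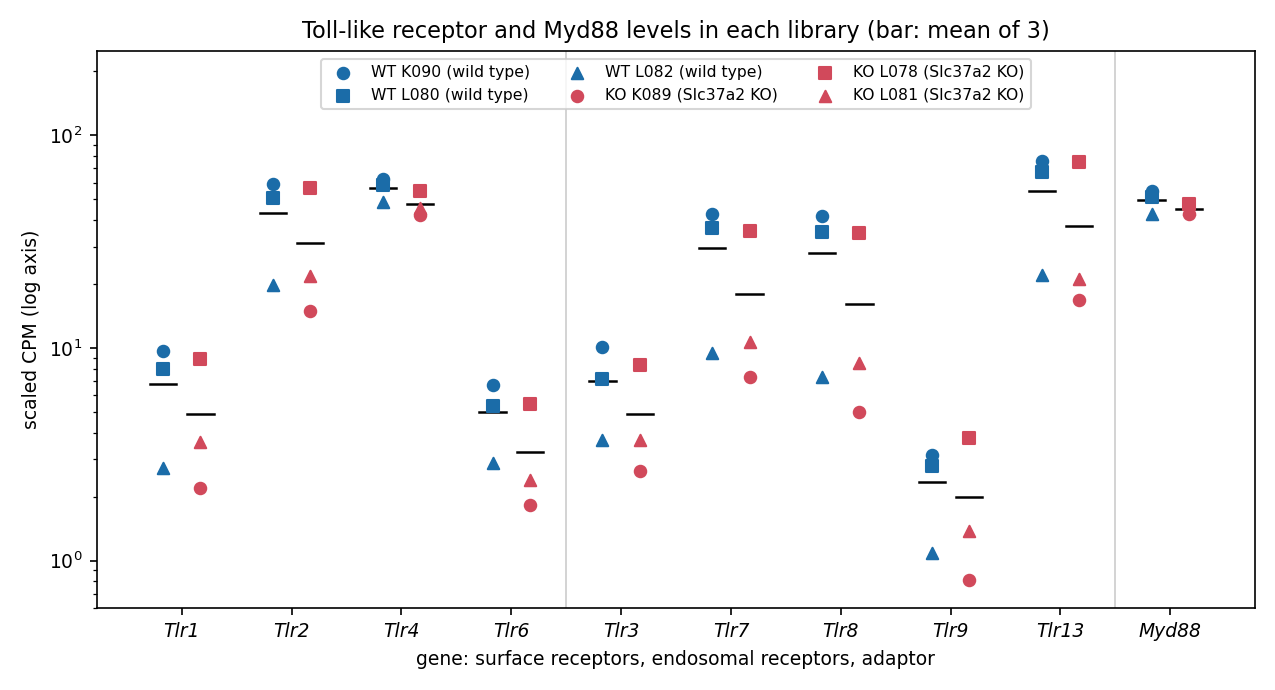
Scaled CPM of each gene (log axis) in each library, with WT in blue, *Slc37a2* KO in red and a black bar at the mean of 3 libraries. For 8 receptors WT L082 (blue triangle) sits with KO K089 and KO L081, and KO L078 (red square) sits with WT K090 and WT L080, whereas *Tlr4* and *Myd88* stay within 1.47-fold.

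Among the surface receptors, *Tlr2*, which pairs with TLR1 or TLR6 to bind bacterial lipopeptides, was measured at 59.2, 50.6 and 19.7 scaled CPM in WT K090, L080 and L082. In KO K089, L078 and L081 it was 15, 56.3 and 21.9. Within each genotype 1 library therefore differed from another by 3-fold or more (3.00-fold in WT and 3.76-fold in KO), and the groups overlapped. The means were 43.2 ± 20.8 in WT and 31.1 ± 22.2 in KO (SD, n = 3), with a log2 fold change of −0.47 (95% confidence interval −1.89 to 0.96).

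Its partners were scarcer. *Tlr1*, for triacylated lipopeptides, was at 9.65, 7.99 and 2.73 scaled CPM in WT K090, L080 and L082 and at 2.2, 8.90 and 3.61 in KO K089, L078 and L081. *Tlr6*, for diacylated lipopeptides, was at 6.71, 5.34 and 2.89 in WT and 1.83, 5.46 and 2.40 in KO, in the same order. Both repeated the pattern of *Tlr2*, with KO L078 beside the high WT libraries and WT L082 beside the low KO libraries. The log2 fold change was −0.46 for *Tlr1* (95% confidence interval −1.99 to 1.08) and −0.61 for *Tlr6* (−1.79 to 0.57). The 2 genes are neighbours on chromosome 5, 18.5 kb apart, and share sequence: 454 windows of 50 bases occur in transcripts of both, 13.6% of those in *Tlr1* and 12.3% of those in *Tlr6*. No other pair among the 45 shared such a window. How reads from these stretches were divided is not given in the sources used here, so the split between *Tlr1* and *Tlr6* is uncertain.

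*Tlr4*, the receptor for lipopolysaccharide, had the narrowest span among the receptors, 1.47-fold, which 40.1% of tested genes exceeded. It was at 62.2, 58.4 and 48.4 scaled CPM in WT K090, L080 and L082 and at 42.4, 55.0 and 45.7 in KO K089, L078 and L081. The 3 highest libraries were those of *Tlr2*, but the span was 1.28-fold within WT and 1.30-fold within KO. The means were 56.3 ± 7.09 and 47.7 ± 6.51 (SD, n = 3), and the log2 fold change of −0.24 had a 95% confidence interval of −0.56 to 0.08. The ratio of *Tlr2* to *Tlr4* therefore moved from 0.953, 0.866 and 0.408 in the WT libraries to 0.353, 1.02 and 0.478 in the KO libraries.

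The endosomal receptors held the widest differences. *Tlr8*, a receptor related to TLR7, was at 41.7, 35.2 and 7.29 scaled CPM in WT K090, L080 and L082 and at 4.99, 34.7 and 8.48 in KO K089, L078 and L081. Its span of 8.36-fold was exceeded by 1.04% of tested genes, and nothing lay between 8.48 and 34.7. *Tlr7*, the sensor of single-stranded RNA, was at 42.8, 36.7 and 9.44 in WT and 7.30, 35.6 and 10.7 in KO, in the same order. The log2 fold changes were −0.79 for *Tlr8* (95% confidence interval −2.91 to 1.32) and −0.72 for *Tlr7* (−2.53 to 1.09), the lowest among the 10 genes and the least precise. These genes lie 40.6 kb apart on the X chromosome, and their ratio stayed close, with *Tlr7* 1.03 to 1.46 times *Tlr8* in scaled CPM.

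*Tlr13*, a mouse receptor for bacterial ribosomal RNA, had the highest counts of the endosomal group. It was at 76.0, 67.0 and 22.1 scaled CPM in WT K090, L080 and L082 and at 16.8, 74.8 and 21.2 in KO K089, L078 and L081. KO L078 and WT K090 thus differed by less than either did from a low library of its own genotype. The means were 55.0 ± 28.8 and 37.6 ± 32.2 (SD, n = 3), with a log2 fold change of −0.54 (95% confidence interval −2.2 to 1.12).

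*Tlr3*, which senses double-stranded RNA and signals through TRIF in place of MyD88, was at 10.1, 7.17 and 3.69 scaled CPM in WT K090, L080 and L082 and at 2.64, 8.34 and 3.71 in KO K089, L078 and L081. *Tlr9*, the sensor of unmethylated CpG DNA, was the scarcest, at 3.14, 2.79 and 1.09 in WT and 0.807, 3.79 and 1.38 in KO. It was the 1 gene whose highest library was a KO library, L078. The log2 fold changes were −0.50 (95% confidence interval −1.77 to 0.76) for *Tlr3* and −0.21 (−1.76 to 1.34) for *Tlr9*. Exons of *Tlr3* share 381 bp (7.32%) with *Gm45542* on the opposite strand, and whether strand was used in counting is not given in the sources used here.

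*Myd88* was the steadiest of the set. It was at 54.6, 51.1 and 42.6 scaled CPM in WT K090, L080 and L082 and at 42.5, 47.4 and 45 in KO K089, L078 and L081. The highest library was 1.28 times the lowest, and 56.6% of tested genes spanned more. The means of 49.4 ± 6.20 and 45 ± 2.46 (SD, n = 3) gave a log2 fold change of −0.13 (95% confidence interval −0.39 to 0.12). Its exons share 290 bp (11.3%) with *Acaa1a* on the opposite strand, so some of its counts may belong to that gene. *Tlr4* tracked it closely, at 0.997 to 1.16 times *Myd88* in every library, whereas *Tlr13* went from 0.396 to 1.58 times *Myd88* and the ratio of *Tlr8* to *Myd88* spanned 6.51-fold. The intervals of *Tlr4* and *Myd88* lay inside the study's limit of 1.5 on the log2 scale on both sides. Those of the other 8 genes reached beyond −1.5, so a fall of that size lies within them, and none reached 1.5.

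**Figure D2:**
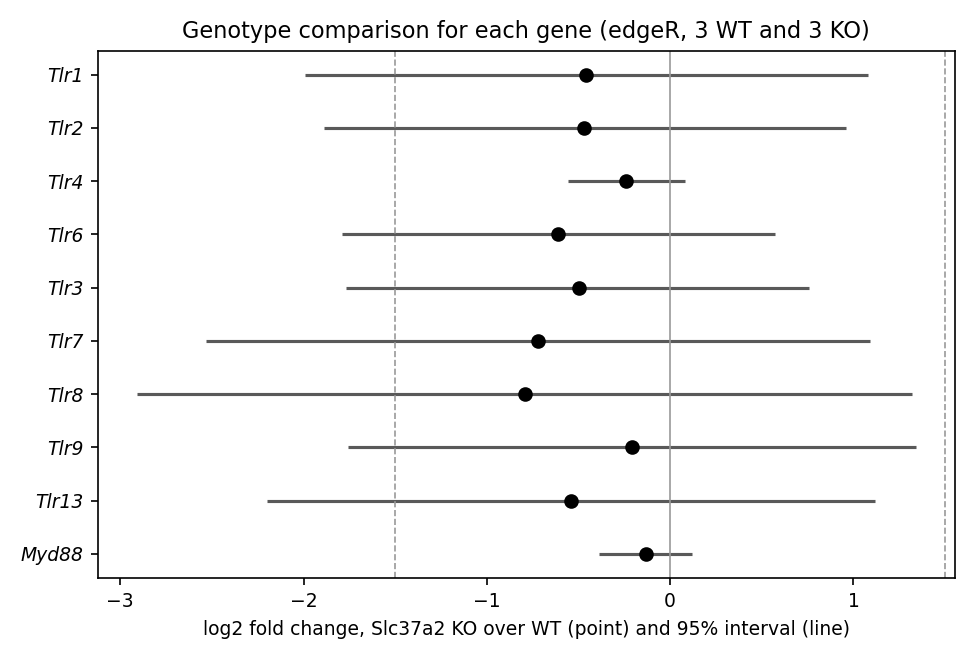
Log2 fold change, KO over WT, for each gene (point) with its 95% interval (line) from edgeR, and dashed lines at −1.5 and 1.5. All 10 intervals cross 0, and those of *Tlr4* and *Myd88* are the narrowest.

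The headings carry the letter K or L before the animal number, a mark of unknown meaning, and each letter holds both genotypes. Between the K animals, K089 (KO) was lower than K090 (WT) for all 10 genes, by −0.36 (*Myd88*) to −3.05 (*Tlr8*) on the log2 scale. Between the L animals, the mean of L078 and L081 (KO) differed from that of L080 and L082 (WT) by −0.11 (*Tlr6*) to 0.38 (*Tlr9*). The K animals are 1 library of each genotype and allow no test. In a fit of the 4 L libraries alone, added after the data were seen, 7 of the 10 log2 fold changes were above 0. The median was 0.07, and 0 of 10 genes were called or had an unadjusted p below 0.05. Among the L animals, each genotype holds 1 library that was high for all 10 genes (WT L080, KO L078) and 1 that was lower (WT L082, KO L081). Small log2 fold changes in that fit follow from this split, whose cause was not tested. With the letter as a term, the log2 fold changes ran from −0.13 to −0.89, and each adjusted p was 0.996 (edgeR quasi-likelihood fit, Benjamini-Hochberg). Leaving out KO L078 moved the median log2 fold change from −0.49 to −1.23, and 7 of 10 genes then had an unadjusted p below 0.05, as did 20.1% of all genes in that fit. None of the 10 was called there. Leaving out WT L082 moved the median to −0.81, and 2 of 10 genes (*Tlr4* and *Myd88*) had an unadjusted p below 0.05, as did 1.98% of all genes. Leaving out KO K089 moved the median to −0.16.

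Compared per kilobase of exon, with lengths from GENCODE M21, the order of levels was *Myd88*, *Tlr2*, *Tlr13*, *Tlr4*, *Tlr8*, *Tlr7*, *Tlr1*, *Tlr3*, *Tlr6* and *Tlr9*. *Myd88* had 18.3 scaled CPM per kb over the 6 libraries (lowest 16.5, highest 21.2). *Tlr2* followed at 12.3 (4.98 to 19.6), *Tlr13* at 10.8 (3.90 to 17.7) and *Tlr4* at 9.36 (7.63 to 11.2). In KO libraries, *Tlr4* at 8.59 ± 1.18 and *Tlr13* at 8.74 ± 7.5 scaled CPM per kb (SD, n = 3) could not be ordered, and each exceeded the other in 3 of the 6 libraries. *Tlr8* (6.15) and *Tlr7* (5.82) likewise led each other in 3 libraries each. *Tlr1* (1.75) was above *Tlr3* (1.14) in 6 of 6 libraries, *Tlr3* above *Tlr6* (1.10) in 4, and *Tlr6* above *Tlr9* (0.623) in 6. With the length of the longest coding transcript in place of all exons, *Tlr4* came to 12.8 and *Tlr2* to 12.3, so their order depends on the length used.

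The other mouse TLRs were barely detected. *Tlr5*, the flagellin receptor, was at 0.319, 0.459 and 0.514 scaled CPM in WT K090, L080 and L082 and at 0.367, 0.710 and 0.460 in KO K089, L078 and L081, from 97 counts in all. *Tlr11* and *Tlr12*, receptors for profilin of parasites, had 3 counts each over the 6 libraries and were not tested. At these depths 3 counts come to 0.0706 to 0.109 CPM in a library.

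In GRCm38 (mm10) with the GENCODE M21 annotation, *Tlr7* lies at chrX:167304929-167330558 and *Tlr8* at chrX:167242696-167264329, both on the minus strand, and *Tlr13* at chrX:106143204-106160493 on the plus strand. *Tlr1* is at chr5:64924679-64933563 and *Tlr6* at chr5:64952031-64960097, both on the minus strand. *Tlr2* (chr3:83836272-83841767, minus), *Tlr3* (chr8:45395665-45411080, minus) and *Tlr4* (chr4:66827584-66930284, plus) stand alone. *Tlr9* (chr9:106222598-106226883, plus) and *Myd88* (chr9:119335934-119341411, minus) are on the chromosome of *Slc37a2*, 69.0 Mb and 82.1 Mb from it.

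The 250 bases before the start site of *Tlr8*, the gene with the widest span, of *Tlr9*, the scarcest, and of *Myd88*, the steadiest, are shown from the RefSeq promoter table of GRCm38.p6, 5′ to 3′ on the gene's strand, with searched motifs in capitals. The RefSeq start of *Myd88* lies inside the GENCODE gene, downstream of its 5′ end, so that window is within the gene span given above and 23 of its bases are in GENCODE exons. The windows cover chrX:167264330-167264579 (minus), chr9:106222348-106222597 (plus) and chr9:119340019-119340268 (minus).
Tlr8: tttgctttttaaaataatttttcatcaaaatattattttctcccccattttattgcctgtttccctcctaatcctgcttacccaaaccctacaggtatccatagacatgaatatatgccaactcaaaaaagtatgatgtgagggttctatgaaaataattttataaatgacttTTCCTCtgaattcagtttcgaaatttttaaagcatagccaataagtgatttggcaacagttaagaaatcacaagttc
Tlr9: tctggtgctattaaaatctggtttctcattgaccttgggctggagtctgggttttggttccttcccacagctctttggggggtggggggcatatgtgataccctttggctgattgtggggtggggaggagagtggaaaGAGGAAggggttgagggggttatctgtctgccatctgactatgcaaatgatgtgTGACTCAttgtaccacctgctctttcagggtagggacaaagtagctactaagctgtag
Myd88: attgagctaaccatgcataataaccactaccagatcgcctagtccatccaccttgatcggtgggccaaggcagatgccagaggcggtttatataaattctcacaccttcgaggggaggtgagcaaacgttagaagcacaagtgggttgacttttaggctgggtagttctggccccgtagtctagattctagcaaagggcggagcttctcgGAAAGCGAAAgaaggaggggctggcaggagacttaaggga
Both strands of 10 such windows from 8 of the 10 genes were searched (*Tlr1* and *Tlr6* have 2 windows each), and *Tlr4* and *Tlr7* have no entry. The core of PU.1, a myeloid transcription factor, was searched as GAGGAA and was found before *Tlr1*, *Tlr8* (reading TTCCTC), *Tlr9* and *Tlr13*, and in 23.3% of 32851 windows. An AP-1-like TGANTCA stood before *Tlr9* and in 6.75% of windows. An interferon response-like GAAANNGAAA stood before *Myd88* and *Tlr6* and in 2.98% of windows, and a κB-like GGGANNTTCC before *Tlr3* and in 1.21%. Like that of *Myd88*, the *Tlr6* and *Tlr3* windows with these motifs lie inside the GENCODE gene spans. In the *Tlr3* window, 178 bases are in GENCODE exons. These letters are described as they stand, and binding was not measured.

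Most of the macrophage markers had the same high libraries as the receptors. *Adgre1*, which encodes the macrophage antigen F4/80, was at 312, 272 and 80 scaled CPM in WT K090, L080 and L082 and at 64.4, 262 and 95.8 in KO K089, L078 and L081. Of 10 macrophage markers, 8 had WT K090, WT L080 and KO L078 as their 3 highest libraries, and 6 spanned 3-fold or more, among them *Lyz2* (4.20-fold) and *Mrc1* (6.74-fold). *Csf1r*, the M-CSF receptor, spanned 1.22-fold. *Cd68*, a lysosomal glycoprotein of macrophages, had those libraries as its 3 lowest, at 1454, 1578 and 1864 in WT K090, L080 and L082 and 2252, 1491 and 2039 in KO K089, L078 and L081. Osteoclast markers went the other way for 8 of 10 genes, with the same libraries as their 3 lowest, as for 20.8% of all tested genes. *Ctsk*, the collagen-degrading protease of osteoclasts, was at 7905, 10597 and 14871 in WT and 18994, 8994 and 17683 in KO, in the same order. In bulk RNA, fewer cells of a type and less RNA per cell cannot be told apart.

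**Figure D3:**
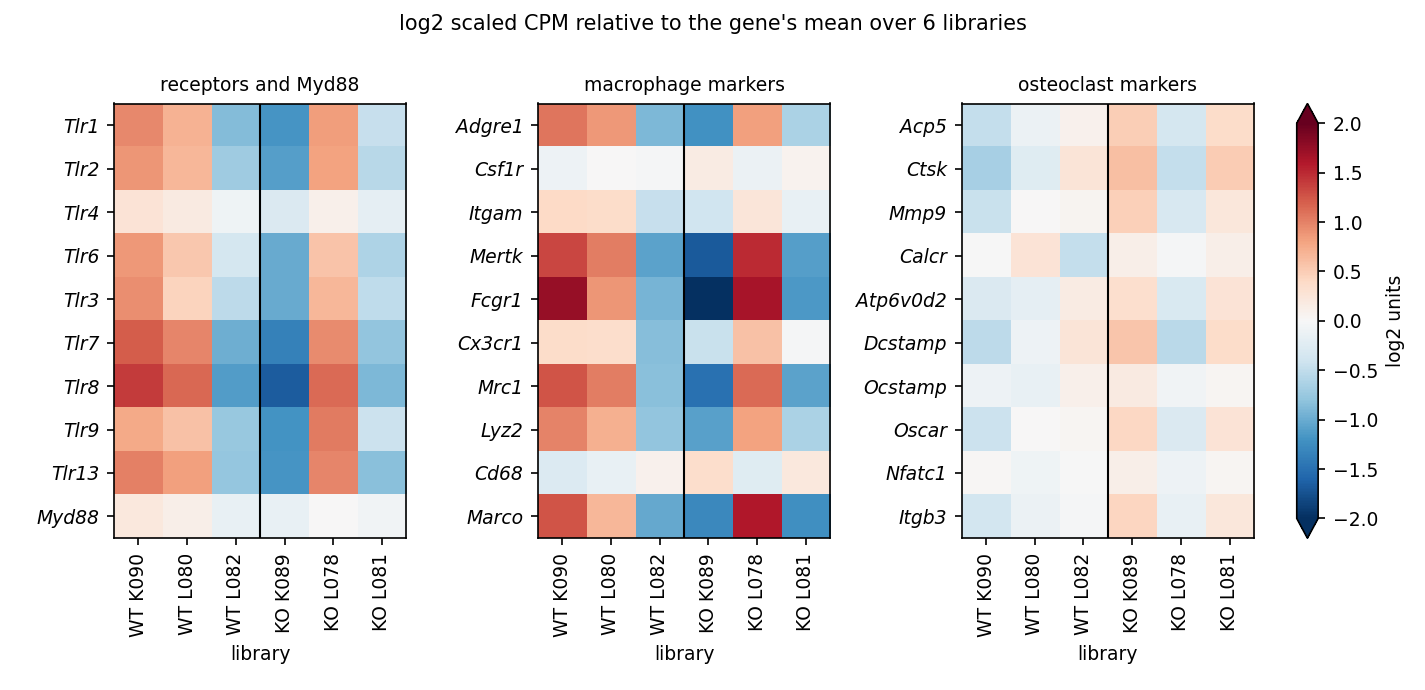
Log2 scaled CPM of each gene in each library, relative to the gene's mean over 6 libraries (red above, blue below), for the receptors and *Myd88*, 10 macrophage markers and 10 osteoclast markers. WT K090, WT L080 and KO L078 are above the mean for 8 receptors and for markers such as *Adgre1* and *Lyz2*, and below it for most osteoclast markers.

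Set against *Adgre1*, a gene chosen for this after its values were seen, the 8 receptors differed far less between libraries. The ratio of *Tlr7* to *Adgre1* lay between 0.112 and 0.137 in all libraries, a 1.23-fold span, and that of *Tlr13* between 0.222 and 0.285. Spans of the ratio were 1.28-fold for *Tlr1*, 1.32-fold for *Tlr2*, 1.44-fold for *Tlr9*, 1.73-fold for *Tlr8*, 1.75-fold for *Tlr3* and 1.84-fold for *Tlr6*. For *Tlr4* and *Myd88* the ratio spanned more than the gene itself, 3.3-fold and 3.77-fold. Against *Csf1r* the spans ran from 1.53-fold (*Myd88*) to 9.98-fold (*Tlr8*). With the macrophage marker level as a term in the fit, the median log2 fold change moved from −0.49 to −0.12 and 0 of 10 genes were called. Of the 10 markers behind this term, 8 had the same 3 highest libraries as the receptors. A smaller median follows from that shared order, and the cause of the order was not tested. *Tlr4* was at −0.14 in that fit, with an unadjusted p of 0.0195 and an adjusted p of 0.999 (edgeR quasi-likelihood fit, Benjamini-Hochberg).

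The genes most like *Tlr13* across the 6 libraries, by Pearson's r of log2 CPM among 8691 genes over 10 CPM, were *Tnfaip8l2* (0.9995), *Iqgap2* (0.9992) and *Slc7a8* (0.9988), and 103 genes exceeded 0.99. For *Tlr4* they included *Gbp7* (0.9978) and *Spcs2* (0.9957), with 9 genes over 0.99. For *Myd88* they were *Dennd6a* (0.9931), *Strn4* (0.9926) and *Pnp* (0.9881), with 2 over 0.99. These values rank likeness only, because the points are 6 libraries that differ in many genes at once.

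Co-receptors varied from gene to gene. Of 6 tested of 7, 0 were called, 2 were higher and 4 lower in KO, with a median log2 fold change of −0.50. *Cd36*, a scavenger receptor that assists TLR2 with TLR6, was at 192, 148 and 61.0 scaled CPM in WT K090, L080 and L082 and at 30.9, 149 and 39.3 in KO K089, L078 and L081. *Ly86* (MD-1) spanned 20.6-fold, from 0.44 to 9.07, with a log2 fold change of −0.88. *Cd180* (RP105), its binding partner, did not share this order, at 194, 177 and 217 in WT and 232, 178 and 216 in KO. The partners of TLR4 for lipopolysaccharide were closer to *Tlr4* itself, with a span of 1.88-fold for *Cd14* and 1.19-fold for *Ly96* (MD-2).

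Genes for the folding, transport and cleavage of TLRs were steadier than the endosomal receptors they serve. Of 17, 0 were called, 7 were higher and 10 lower, with a median log2 fold change of −0.11 and a median span of 1.49-fold. *Hsp90b1* (gp96), the chaperone of TLRs, spanned 1.17-fold around 952 scaled CPM. *Ctsb* (cathepsin B) averaged 5442 scaled CPM with a log2 fold change of 0.16, and *Atp6ap2*, a proton pump accessory protein, 1058 with 0.24. *Unc93b1*, which carries the nucleic acid receptors to endosomes and was named after its values were seen, was at 171, 156 and 78.3 in WT K090, L080 and L082 and at 92.8, 154 and 102 in KO K089, L078 and L081, a 2.18-fold span. The exceptions that spanned 3-fold or more were *Pld4*, an endosomal nuclease (5.20-fold, log2 fold change −0.58), and *Ctss*, cathepsin S (3.56-fold, −0.41). *Rnaset2a*, a lysosomal ribonuclease, had a log2 fold change of −0.45, and its close copy *Rnaset2b* makes the split of their counts uncertain.

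Adaptors and kinases downstream followed *Myd88* rather than the receptors in their spread. Of 22 tested of 23, 0 were called, 13 were higher and 9 lower, with a median log2 fold change of 0.02 and a median span of 1.23-fold. The bridging adaptor *Tirap* spanned 1.22-fold, the kinases *Irak4* and *Irak1* 1.10-fold and 1.17-fold, the ubiquitin ligase *Traf6* 1.23-fold and its partner *Tab2* 1.08-fold. *Pik3ap1* (BCAP), a link from TLRs to PI3K, was the most abundant, at 532, 497 and 732 scaled CPM in WT K090, L080 and L082 and at 865, 478 and 791 in KO K089, L078 and L081, lowest in the libraries where the receptors were highest. *Irf7*, the interferon regulatory factor downstream of TLR7 and TLR9, was at 25.0, 11.8 and 3.21 in WT and 1.65, 14.5 and 4.45 in KO, a 15.2-fold span and a log2 fold change of −0.94. *Ikbke* (4.90-fold) and *Ticam2* (TRAM, 3.42-fold) were the other two that spanned 3-fold or more. Groups did not overlap for 1 gene of the 22, as for 4.31% of all tested genes. This gene, *Map3k7* (TAK1), was at 81.7 to 82.8 in WT and 80.5 to 81.5 in KO. It spanned 1.03-fold, with a log2 fold change of −0.02.

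**Figure D4:**
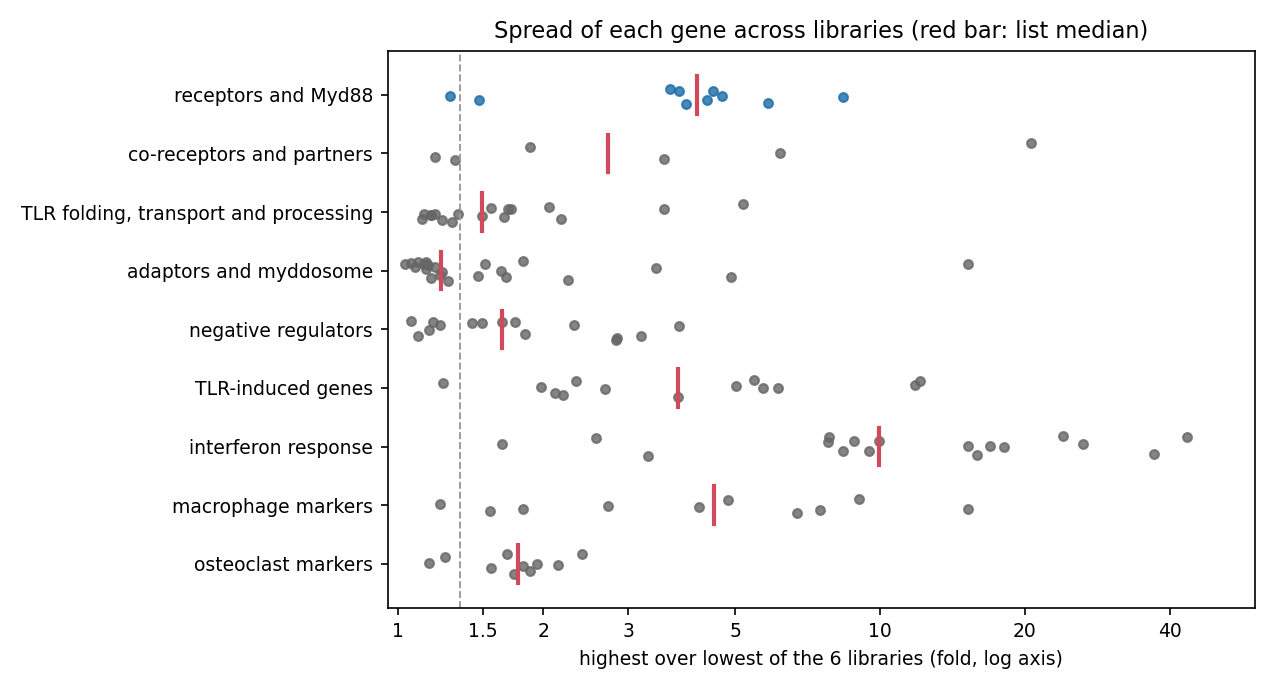
Highest over lowest scaled CPM of the 6 libraries (fold, log axis) for each tested gene of each list, with a red bar at the list's median and a dashed line at the median of all tested genes (1.34). The receptors (8 of the 10 blue points) lie at 3.66 or more, while the adaptor list has a median of 1.23 and the interferon list of 9.94.

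Among the other receptors that signal through MyD88, 1 of 5 tested IL-1 family receptors, *Il1rap*, had the same 3 highest libraries. Of the 5, 0 were called, 1 was higher and 4 lower, with a median log2 fold change of −0.22. *Il1r1*, the IL-1 receptor, ran opposite to the TLRs, at 6.15, 8.62 and 16.2 scaled CPM in WT K090, L080 and L082 and at 22.5, 7.35 and 22.3 in KO K089, L078 and L081 (log2 fold change 0.75). *Il18rap* had a log2 fold change of −0.78 at a mean of 0.675 scaled CPM. *Il1rap* averaged 8.60 and *Il1rl2* 1.91.

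Of 15 tested negative regulators, 0 were called, 4 were higher and 11 lower, with a median log2 fold change of −0.07. The most abundant were *Tnip1* (213 scaled CPM), *Tnfaip3* (A20, 180) and *Tollip* (134), with log2 fold changes of 0.04, 0.12 and 0.24. *Nlrc3* (−0.58) and *Tnip3* (−0.44) had the changes farthest from 0, and both were highest in WT K090, WT L080 and KO L078.

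Among genes that TLR signaling induces, *Il1b* had 26 counts over all 6 libraries, *Il6* 13, *Cxcl1* 33, *Cxcl2* 58, *Il12b* 3 and *Ifnb1* 2, and none of these was tested. Of the 13 tested, 0 were called, 3 were higher and 10 lower, with a median log2 fold change of −0.41. Their median span was 3.81-fold, and 7 of the 13 spanned 3-fold or more, as did 10.4% of all tested genes. WT K090, WT L080 and KO L078 were the 3 highest libraries for 6 of the 13, as for 22.6% of all tested genes. *Nfkbia*, the NF-κB inhibitor and an early target, spanned 1.24-fold, at 366, 348 and 352 scaled CPM in WT K090, L080 and L082 and at 375, 327 and 407 in KO K089, L078 and L081. *Tnf* averaged 8.71 scaled CPM with a log2 fold change of 0.21, *Zfp36* 79.8 with 0.01 and *Ptgs2* 12.6 with −0.48. *Ccl4* (12.1-fold) and *Nos2* (11.8-fold) had the widest spans of the list, at means of 2.15 and 0.794 scaled CPM and log2 fold changes of −1 and −0.90.

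Interferon response genes, several of which are induced downstream of the endosomal TLRs, had the same 3 highest libraries as the receptors for 17 of 17 genes. All 17 log2 fold changes were below 0 and 0 were called, with a median of −0.91. *Stat2* averaged 24.4 scaled CPM with a log2 fold change of −0.42 and *Irf9* 18.8 with −0.52. *Usp18* ran from 10.5, 5.90 and 0.931 in WT K090, L080 and L082 to 0.661, 5.59 and 1.31 in KO K089, L078 and L081 (log2 fold change −1.17), and *Ifit3b* had a log2 fold change of −1.14. Summed over the list, levels were 395, 266 and 148 in WT and 134, 292 and 169 in KO. Those of the 9 receptors and *Myd88* together were 366, 322 and 160 in WT and 137, 330 and 164 in KO. No agonist of a TLR was among the labelled treatments.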

How the data were processed

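RNAseq was measured in 3 WT and 3 *Slc37a2* KO libraries, grouped by the GEO labels and matched to columns by the genotype in the heading. The deposited table holds raw read counts of 22601 genes by symbol, as whole numbers made by the authors. The submitters' processing notes name mm10, bcl2fastq 2.20.0.422 and edgeR 3.30.3. The aligner, counting tool, strand setting and annotation were not given in the sources used here. Not used were the deposited columns of the authors' own comparison (log2 fold change, mean log2 CPM, likelihood ratio, p-value and FDR) and a list that repeats the first 1000 rows of the table.

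Differences were tested with edgeR 4.0.16 in R 4.3.3 (filterByExpr defaults, TMM, glmQLFit and glmQLFTest on genotype alone). The p-values were adjusted over 13483 genes by the Benjamini-Hochberg method. Alternatives used edgeR's likelihood ratio test and DESeq2 1.42.0. A gene was called at an adjusted p below 0.05; the study's limit on the absolute log2 fold change was 1.5. Intervals are 95%, and spans are the highest over the lowest scaled CPM. Log2 CPM used a prior count of 2. A floor of 3 counts covers counting error only, since PCR copies were not told apart by molecular identifiers. Totals were 27552183 to 42522292 counts, and the prior degrees of freedom were 2.35. The fit was tested on simulated data with known changes, in which genes were drawn independently of each other. It recovered 117 of 200 genes changed by 1 on the log2 scale, with 13 unchanged genes called. For changes of 3 it recovered 190 of 200, with 15 unchanged genes called. The changed genes were drawn from all tested genes, whose median standard error of the log2 fold change was 0.136. For the 8 receptors that spanned 3-fold or more, it was 0.49 (*Tlr6*) to 0.87 (*Tlr8*). The recovered shares therefore do not apply to those receptors.

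The genes and lists were chosen with earlier results of these data known. Named were the 10 genes, *Tlr5*, *Tlr11*, *Tlr12*, *Slc37a2* and, in each pathway list, the 3 genes with the highest mean CPM, the 2 with the largest absolute log2 fold change and any called; for *Myd88*, *Tlr4* and *Tlr13*, the 3 genes over 10 CPM with the highest Pearson's r. Some genes that this rule names are not reported here. *Unc93b1*, *Ctss*, *Ly96*, *Tirap*, *Irak4*, *Traf6*, *Ikbke*, *Map3k7*, *Rnaset2b*, *Tnf*, the cytokines that were not tested and the markers are named beyond this rule, with their values known. Positions and lengths are from GENCODE M21 on GRCm38. Other scaling and filters, other tests, each library left out, the heading letter and, added after seeing the data, a macrophage marker term and the L animals alone were tried.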

Additional observations from a re-analysis of the deposited data

How the results depend on the processing

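The number of genes called was 1, and it was 2 with no filter on low counts, with edgeR's likelihood ratio test and with DESeq2's Wald test. None of the receptors or *Myd88* was called under any setting. Their median log2 fold change of −0.49 ranged from −0.51 to 0.07 over the other settings. It was −0.12 with the macrophage marker term, where *Tlr1* came to 0.01 and *Tlr9* to 0.16, above 0. It was 0.07 in the L animals alone, where *Tlr1* came to 0.23, *Tlr2* and *Tlr3* to 0.16, *Tlr7* to 0.02, *Tlr8* to 0.03, *Tlr9* to 0.43 and *Tlr13* to 0.11. With each library left out in turn it ranged from −1.23 (without KO L078) to −0.16 (without KO K089), and *Tlr9* from −1.10 to 0.17. *Tlr9* was above 0 without WT K090 (0.06), KO K089 (0.17) or KO L081 (0.01). The number of genes with groups that did not overlap, 0 of 10, ranged from 0 to 4 with a library left out. It was 4 (*Tlr4*, *Tlr7*, *Tlr8* and *Myd88*) without WT L082, where 16.4% of all genes did not overlap, and 3 (*Tlr4*, *Tlr6* and *Tlr13*) without KO L078, where 41.6% did not. The cause was not tested. Of all values recomputed, 172 counted as the same, 12 log2 fold changes of single genes reversed direction, and 8 numbers of genes moved. Medians and numbers of genes counted as the same after a small shift. The median of 0.07 in the L animals is among these, although its direction changed. No paired analysis was possible because no label says which animals shared a culture or a preparation. Correlations planned with the interferon genes are not given, since the libraries fall into separate sets of 3 for 8 receptors. Counts over the 6 libraries were low for *Tlr5* (97), *Tlr11* (3) and *Tlr12* (3), and the reason was not tested.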
